A study of Caenorhabditis elegans with 2 samples.

Results

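The 8 genes of C. elegans that encode subunits of voltage-gated calcium channels and the pores of the NALCN-type sodium leak channels were examined for binding of the transcription factor UNC-3. They were taken by name from 19973 nuclear protein-coding genes: unc-2, egl-19, cca-1, unc-36, ccb-1, ccb-2, nca-1 and nca-2. Each locus was the gene body plus 5000 bp upstream in the Ensembl release 115 annotation of WBcel235, the sequence of build ce11, and the 8 loci together covered 192 kb. The annotation names 7 of them. The gene it names unc-77 was taken as nca-1 from general knowledge of worm gene names, a pairing that the files used here do not state and on which all nca-1 values rest. Chromatin immunoprecipitation with an antibody against GFP, followed by sequencing of the recovered DNA, had been done on whole hermaphrodite late embryos of strain OP578, which has the genotype unc-119(tm4063) III; wgIs578 and carries UNC-3 with GFP-FLAG at its C terminus. The 2 libraries are biological replicates of this 1 group, collected 4 h after synchronization by bleaching of eggs, so both carry the unc-119 mutation and the transgene, and there is no group without them. The labels do not give the promoter or the cells in which the tagged protein was made. In chromatin from whole embryos, a site bound strongly in few cells and one bound weakly in many cannot be told apart.

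A voltage-gated calcium channel consists of a pore-forming alpha1 subunit and the auxiliary alpha2delta and beta subunits, which govern how much channel reaches the membrane and how it gates. In worms unc-2 encodes the presynaptic alpha1 subunit that couples depolarization to transmitter release, egl-19 the L-type alpha1 subunit of muscle and neurons, and cca-1 the T-type alpha1 subunit, known for its part in pharyngeal muscle. The NALCN-type channels pass a sodium leak current that sets neuronal excitability, and nca-1 and nca-2 encode their partly redundant pores. UNC-3, a transcription factor of the COE (Collier/Olf/EBF) family, is known for maintaining the identity of cholinergic motor neurons, a cell type in which both kinds of channel act. COE proteins bind the palindrome TCCCNNGGGA, in which N is any base.

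Exact copies of this palindrome lay near a summit in 3 of the 8 loci, and the sequences of the copies in unc-2 and nca-2 are shown because the results below turn on them. The copy in unc-2 stood in an intron at chrX:2728455-2728464 and the copy in nca-2 upstream of the gene at chrIII:4965304-4965313. A site in another intronic position of unc-2, at chrX:2732286-2732295, is shown for its single substitution against the palindrome, C4G, with positions counted from 1 at the 5′ end. The palindrome in tag-180, which encodes another alpha2delta subunit and was compared as a partner gene, is shown at chrII:11328576-11328585. The lines give the forward strand of the RefSeq genome WBcel235, 5′ to 3′, with the palindrome or its variant in capitals. They span chrX:2728410-2728510, chrIII:4965259-4965359, chrX:2732241-2732341 and chrII:11328531-11328631.
unc-2, palindrome: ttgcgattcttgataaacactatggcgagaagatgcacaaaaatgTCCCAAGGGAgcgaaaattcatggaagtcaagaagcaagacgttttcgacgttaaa
nca-2, palindrome: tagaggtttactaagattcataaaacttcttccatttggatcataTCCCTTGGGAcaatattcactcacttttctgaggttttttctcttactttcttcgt
unc-2, site with 1 mismatch: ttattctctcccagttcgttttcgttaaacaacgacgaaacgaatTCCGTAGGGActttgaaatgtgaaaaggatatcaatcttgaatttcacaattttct
tag-180, palindrome: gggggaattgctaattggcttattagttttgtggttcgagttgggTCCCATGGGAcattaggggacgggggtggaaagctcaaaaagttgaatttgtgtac
The central bases, which the palindrome leaves free, were AA in unc-2, TT in nca-2 and AT in tag-180 on this strand.

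The authors deposited 4 peak lists in ce11. Those of replicates 1 and 2 held 20517 and 21474 peaks, with background included. The pooled list, called on both libraries together, held 15515 peaks, and 754 peaks passed the irreproducible discovery rate (IDR), a filter based on agreement between replicates. Passing it does not mean that a peak had equal replicate signals: at nlf-1, a partner gene with a listed peak, they were 16.2 and 49.7. Each peak carries a signal value set by the authors' peak caller, in a unit that the sources used here do not state. It ran from 20.1 to 996.8 in the pooled list and from 60.2 in the IDR list, and the ranks below count from the strongest peak of each list. Read depth is unknown, and the control library was not analysed here.

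Among the 8 genes, unc-2 had an IDR summit in its locus and the other 7 had none, although all 8 had pooled summits. The count of 1 in 8 (12.5%) stood beside 6.36% of all protein-coding loci built by the same rule. Among the 116 loci of 30000 bp or more, a limit chosen after the data were seen, 13.8% had an IDR summit. Of the 3 channel loci that long, those of unc-2, cca-1 and nca-1, 1 (33.3%) had one, too few to read against that share. The count of 1 also rested on the combination of both libraries: of the 754 strongest peaks of replicate 1, 2 had summits in the loci, at unc-2 and nca-2, and of the 754 strongest of replicate 2 none did. The summit in the nca-2 locus lay 15 bp from the transcription start site of another gene, C27F2.9. For these replicate peaks the share of all protein-coding loci is not given here. All 8 loci had summits in the pooled list, against 60.4% of all loci, in replicate 1, against 71.9%, and in replicate 2, against 71.7%. These shares are not matched for length. The median locus was 18663.5 bp long among the 8 genes and 7027 bp among all loci, and longer loci have more room for summits. With 38 summits in the pooled list and 47 in each replicate list, the 8 loci held 0.245% of the nuclear pooled peaks. For the 7 loci without an IDR summit the nearest one outside lay between 38572 bp away, from nca-2, and 155436 bp away, from cca-1. The 38 pooled peaks overlapped each other in part and merged to 30 regions.

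**Figure D1:**
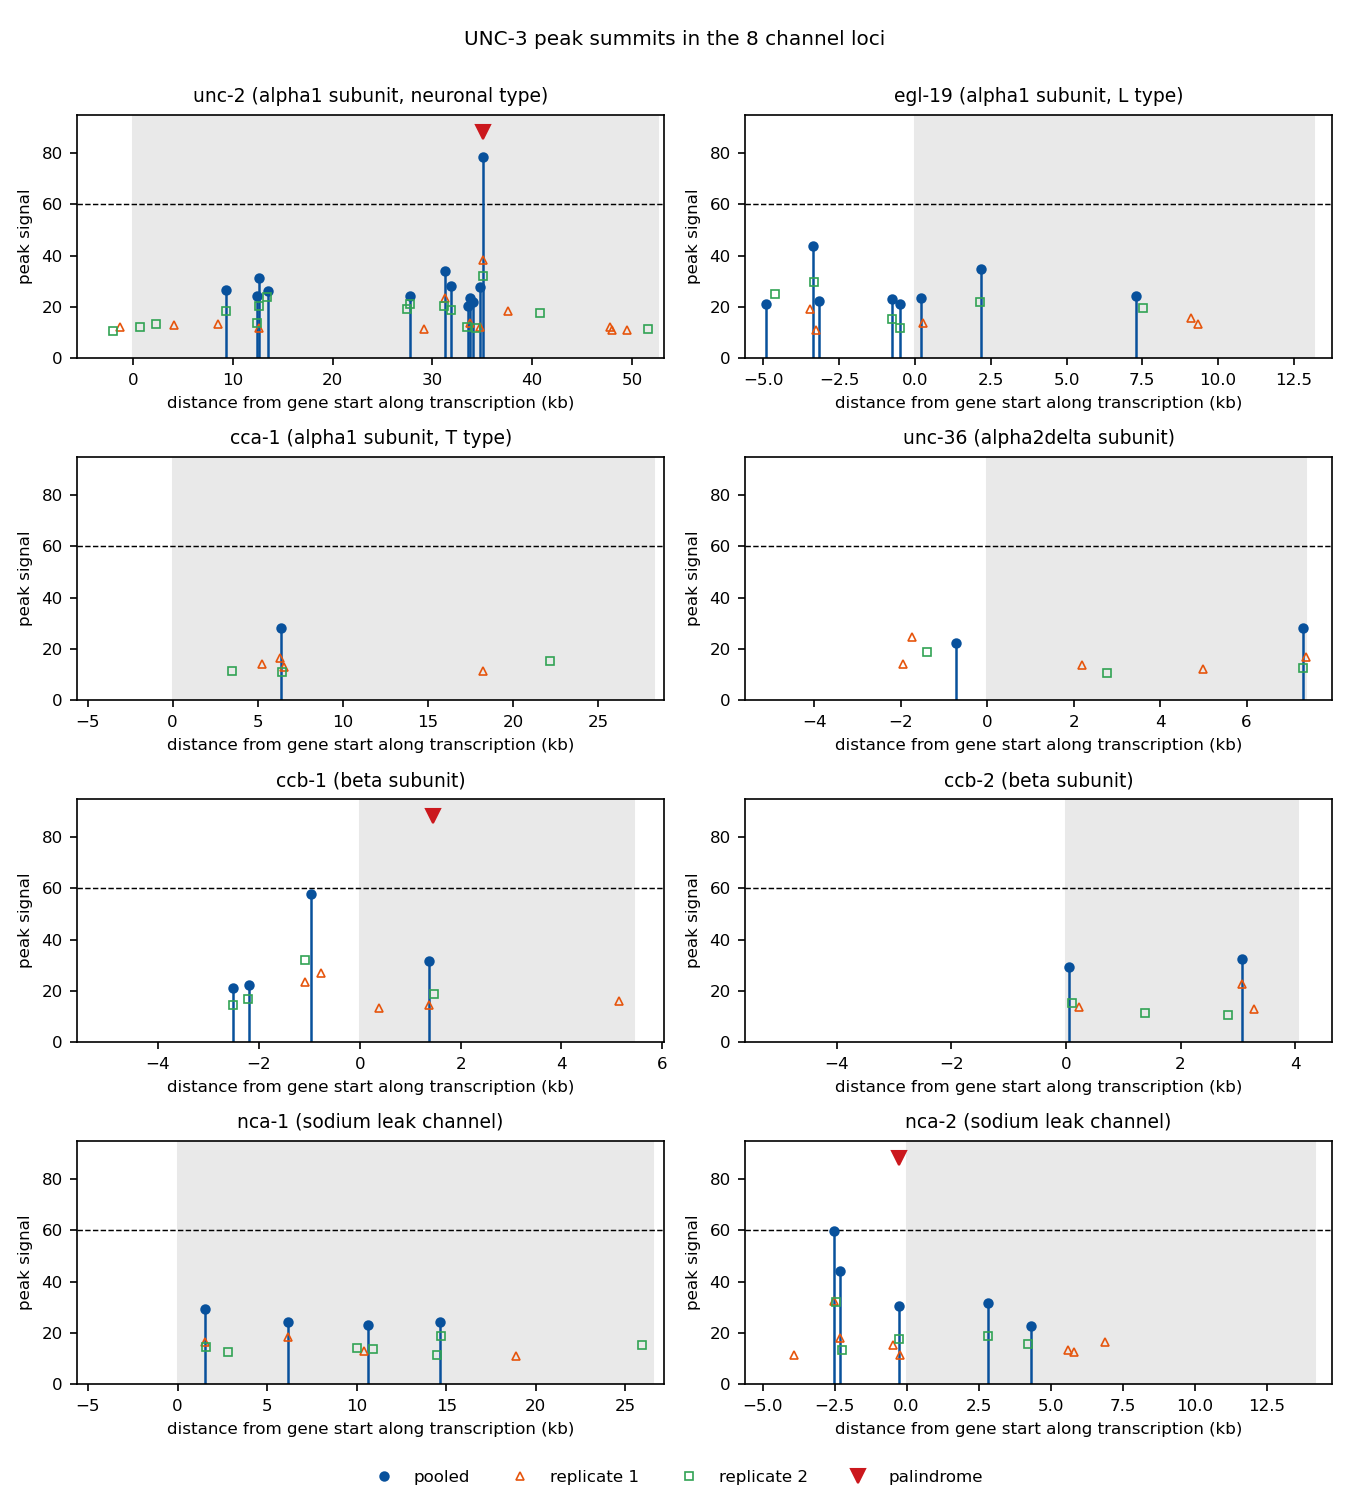
Peak signal (vertical axis, the authors' scale of each list) of every summit against its distance from the gene start along the direction of transcription in kb (horizontal axis), for the 8 loci. Filled circles are pooled summits, open triangles replicate 1, open squares replicate 2, red triangles the palindrome, grey shading the gene body and the dashed line the lowest IDR signal of 60.2. The unc-2 summit with a signal of 78.5 is the single pooled summit above the line, and nca-2 and ccb-1 each have one just under it.

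The strongest summit of all 8 loci was that of unc-2, in an intron of the gene (X, 2710920 to 2763526, minus strand). It lay at 2728506 (signal 78.5, rank 435), 35020 bp from the annotated gene start and 2874 bp from the nearest annotated unc-2 transcription start site (TSS). The IDR list carried the same signal and rank for this peak, so they are not a second measurement. Of the 15 annotated transcripts 13 spanned the summit. Both libraries had the peak. Replicate 1 placed it at 2728506 (signal 38.4, rank 436) and replicate 2 at 2728496 (signal 32.1, rank 872). In replicate 1 its rank was close to that in the pooled list, and in replicate 2 it stood outside the strongest 754. The palindrome centre was 46.5 bp from the pooled summit, 46.5 bp from that of replicate 1 and 36.5 bp from that of replicate 2.

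The other pooled summits of unc-2, also intronic, fell in 2 stretches of the gene and were far weaker. In the stretch around the IDR summit there were 8 in all, the others being 2728711 (signal 27.7, rank 5877), 2729461 (signal 21.9, rank 12328), 2729716 (signal 23.6, rank 9950), 2730007 (signal 20.2, rank 15253), 2731639 (signal 28.0, rank 5707), 2732306 (signal 33.8, rank 3103) and 2735730 (signal 24.2, rank 9197). The 4 of the second stretch, nearer to the gene start, were 2749999 (signal 26.1, rank 7139), 2750904 (signal 31.1, rank 4034), 2751112 (signal 24.1, rank 9371) and 2754225 (signal 26.6, rank 6699). The summit at 2732306 was the second strongest of the locus, and the site with 1 mismatch shown above lay 15.5 bp from it. Summits at 2731639 and 2735730 were 213 and 547 bp from internal unc-2 start sites. Of the 12 pooled summits 8 were overlapped by a peak in both replicates, and 4 in replicate 2 alone. Some of the 8 shared their strongest replicate peaks, as 2728711 did with the IDR summit and 2751112 with 2750904. At 2729461 the overlapping peaks of the replicates, with summits at 2729713 and 2729154, did not overlap each other.

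Replicate summits at unc-2 were spread more widely than the pooled ones. Besides the summit at the palindrome, replicate 1 had summits at 2714074 (signal 11.1, rank 18909), 2715528 (signal 11.1, rank 18937), 2715767 (signal 12.0, rank 15620), 2725969 (signal 18.2, rank 4082), 2728753 (signal 12.0, rank 15838), 2729713 (signal 13.6, rank 11030), 2732274 (signal 23.6, rank 1540), 2734378 (signal 11.2, rank 18613), 2750891 (signal 11.8, rank 16491), 2755049 (signal 13.4, rank 11541), 2759395 (signal 13.0, rank 12638) and 2764828 (signal 11.9, rank 15969). Replicate 2 had them at 2711905 (signal 11.2, rank 17545), 2722749 (signal 17.5, rank 4836), 2729154 (signal 11.9, rank 15217), 2730111 (signal 12.2, rank 14448), 2731639 (signal 18.9, rank 3747), 2732399 (signal 20.3, rank 2971), 2735767 (signal 21.1, rank 2600), 2736061 (signal 19.2, rank 3510), 2750120 (signal 23.9, rank 1796), 2750909 (signal 20.3, rank 2935), 2751116 (signal 13.9, rank 10072), 2754223 (signal 18.4, rank 4102), 2761240 (signal 13.2, rank 11641), 2762824 (signal 12.1, rank 14528) and 2765593 (signal 10.6, rank 20006). The replicate 1 summit with a signal of 23.6 lay 16.5 bp from the site with 1 mismatch, and the nearest replicate 2 summit, with 20.3, lay 108.5 bp from it. The medians of the lists were 13.9 and 13.6. Upstream of the gene start, no pooled summit was found in the 5000 bp, and each replicate had 1 weak summit there.

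At egl-19 (IV, 7405582 to 7418740, plus strand) no summit reached the IDR list, and 5 of its 8 pooled summits lay upstream of the gene. The strongest pooled summit stood 3381 bp upstream of the gene start, at 7402201 (signal 43.7, rank 1534). The peaks that overlapped it reached 19.1 in replicate 1 and 29.9 in replicate 2. The others were 7400678 (signal 20.9, rank 13930), 7402416 (signal 22.3, rank 11669), 7404811 (signal 23.1, rank 10600), 7405089 (signal 20.9, rank 13909), 7405773 (signal 23.5, rank 10099), 7407746 (signal 34.6, rank 2873) and 7412869 (signal 24.1, rank 9254). The first 5 of the 8, in order of position, were intergenic and had their nearest protein-coding TSS at C48A7.16, a short annotated gene just before egl-19, and the last 3 lay in egl-19 introns. The summit at 7407746 also fell inside C48A7.6, a noncoding RNA gene on the opposite strand.

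Support from the libraries was unequal at egl-19. Of its 8 pooled summits 2 were overlapped by a peak in both replicates, 1 in replicate 1 alone and 5 in replicate 2 alone. Replicate 1 had summits at 7402111 (signal 19.1, rank 3368), 7402314 (signal 11.0, rank 19588), 7405854 (signal 13.6, rank 11062), 7414695 (signal 15.7, rank 6831) and 7414925 (signal 13.4, rank 11509). Replicate 2 had them at 7400951 (signal 24.9, rank 1610), 7402255 (signal 29.9, rank 1045), 7404811 (signal 15.1, rank 7695), 7405097 (signal 11.9, rank 15203), 7407710 (signal 21.9, rank 2329) and 7413110 (signal 19.7, rank 3264). The replicate 2 summit at 7400951 ranked 1610 in its list and had no counterpart in replicate 1. It fell inside the noncoding RNA genes C48A7.14 and C48A7.15. No palindrome was found in the locus.

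The T-type gene cca-1 (X, 7847678 to 7875954, minus strand) had the fewest pooled summits of the 8 for its length. Its single pooled summit, in an intron, was 7869594 (signal 28.0, rank 5697). Both replicates overlapped it, with signals of 16.3 and 10.9. Replicate 1 had summits at 7857725 (signal 11.3, rank 18199), 7869386 (signal 12.7, rank 13423), 7869637 (signal 16.3, rank 6026) and 7870717 (signal 14.3, rank 9430), and replicate 2 at 7853746 (signal 15.1, rank 7771), 7869548 (signal 10.9, rank 18829) and 7872479 (signal 11.5, rank 16572). The replicate signals at the pooled summit thus stood above the median of 13.9 in replicate 1 and below the median of 13.6 in replicate 2. The locus, 33277 bp long, held no palindrome.

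The alpha2delta gene unc-36 (III, 8193843 to 8201217, minus strand) had 2 pooled summits. They lay at 8193904 (signal 28.2, rank 5556) and 8201952 (signal 22.4, rank 11523). The first was at the far end of the gene, in an untranslated region, and was overlapped in replicate 1 with a signal of 16.8 and in replicate 2 with 12.6. The second lay 735 bp upstream of the gene start, inside the noncoding RNA gene C50C3.15, and no replicate peak overlapped it. Replicate 1 had summits at 8193845 (signal 16.8, rank 5415), 8196216 (signal 12.2, rank 14950), 8199016 (signal 13.8, rank 10578), 8202967 (signal 24.4, rank 1379) and 8203166 (signal 14.0, rank 10060), and replicate 2 at 8193904 (signal 12.6, rank 13279), 8198458 (signal 10.6, rank 20182) and 8202623 (signal 18.7, rank 3876). The strongest replicate summits of the locus, with signals of 24.4 and 18.7, lay 344 bp apart upstream of unc-36, their nearest TSS was that of snb-5, and the pooled list had no summit between them. This pair was named after its values were seen.

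The beta subunit genes differed in where their signal lay. At ccb-1 (chromosome I, 3641651 to 3647082, minus strand), the beta subunit gene known to be essential, the strongest pooled summit stood 962 bp upstream of the gene start and fell just short of the IDR list. It was 3648044 (signal 57.9, rank 819), 65 ranks past the last IDR peak. Its strongest overlapping peaks ranked 1021 in replicate 1, with a signal of 27.1, and 866 in replicate 2, with 32.2. The 2 further upstream summits, 3649276 (signal 22.4, rank 11557) and 3649600 (signal 21.2, rank 13539), were below the pooled median and overlapped by replicate 2 alone.

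Inside ccb-1, an intronic pooled summit at 3645699 (signal 31.7, rank 3811) lay 60.5 bp from the centre of a palindrome at 3645634 to 3645643. Replicate 1 had its summit 61.5 bp from that centre, with a signal of 14.4, and replicate 2 had one 29.5 bp away on the other side, with 18.9. In all, replicate 1 had summits at 3641951 (signal 16.0, rank 6398), 3645700 (signal 14.4, rank 9124), 3646698 (signal 13.2, rank 12070), 3647856 (signal 27.1, rank 1021) and 3648161 (signal 23.3, rank 1614), and replicate 2 at 3645609 (signal 18.9, rank 3752), 3648160 (signal 32.2, rank 866), 3649295 (signal 16.9, rank 5338) and 3649604 (signal 14.6, rank 8659). The palindrome of ccb-1 was thus not at the strongest summit of the locus.

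At ccb-2 (chromosome I, 2845859 to 2849903, plus strand), which encodes a second beta subunit, both pooled summits lay in the gene body. They were 2845904 (signal 29.4, rank 4861) and 2848936 (signal 32.3, rank 3596). The first was in coding sequence 45 bp from the gene start, with a variant of the palindrome carrying 1 mismatch 48.5 bp away, and the second was in an intron. Replicate signals at the first were 13.6 and 15.3. At the second they were 22.6 in replicate 1 and 10.8 in replicate 2 so that replicate 1 had the higher value. Replicate 1 had summits at 2846088 (signal 13.6, rank 10995), 2848935 (signal 22.6, rank 1786) and 2849136 (signal 12.8, rank 13174), and replicate 2 at 2845958 (signal 15.3, rank 7447), 2847231 (signal 11.3, rank 17454) and 2848684 (signal 10.8, rank 19457).

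The sodium leak channel genes nca-1 and nca-2 encode closely related pores but had different patterns of peaks. At nca-1 (IV, 6157306 to 6183857, minus strand) the 4 pooled summits were intronic, 6169189 (signal 24.0, rank 9416), 6173231 (signal 23.2, rank 10392), 6177714 (signal 24.3, rank 9111) and 6182348 (signal 29.3, rank 4940), with 3 below the pooled median signal of 25.5. The strongest of them lay 1509 bp inside the gene, within the noncoding RNA gene C11D2.99, and had replicate signals of 16.4 and 14.6. Peaks of both replicates overlapped 2 of the 4, while 1 was overlapped in replicate 1 alone and 1 in replicate 2 alone. At 6173231 the replicate peaks, with summits at 6173462 and 6172940, did not overlap each other. Replicate 1 had summits at 6164973 (signal 11.1, rank 19137), 6173462 (signal 13.1, rank 12423), 6177700 (signal 18.5, rank 3839) and 6182348 (signal 16.4, rank 5944), and replicate 2 at 6157948 (signal 15.2, rank 7595), 6169163 (signal 18.8, rank 3763), 6169388 (signal 11.2, rank 17817), 6172940 (signal 13.8, rank 10251), 6173863 (signal 14.2, rank 9453), 6181032 (signal 12.6, rank 13130) and 6182293 (signal 14.6, rank 8545). No summit of either library lay in the 5000 bp upstream, and the locus held no palindrome.

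At nca-2 (III, 4965571 to 4979738, plus strand) the signal was upstream and stronger. The strongest pooled summit, 4963060 (signal 59.5, rank 771), fell 17 ranks short of the IDR list, with a signal of 59.5 against the lowest IDR signal of 60.2. It was 2511 bp upstream of nca-2 but only 16 bp from the TSS of C27F2.9, a gene on the opposite strand, and the data do not say to which gene it belongs. Its peaks ranked 658 in replicate 1, with a signal of 32.3, and 873 in replicate 2, with 32.0. Its neighbour 4963269 (signal 44.1, rank 1498) overlapped the same peaks.

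The palindrome of nca-2 lay near the gene start, 262.5 bp from the nearest nca-2 TSS. The pooled summit 4965314 (signal 30.3, rank 4424) was 5.5 bp from its centre. The replicate 2 summit, 4965305 (signal 17.8, rank 4558), was 3.5 bp away, while the nearest replicate 1 summit, 4965348 (signal 11.5, rank 17564), was 39.5 bp away and among the weaker peaks of that list. The 5.5 bp were the shortest distance between a pooled summit and a palindrome in the 8 loci, and the signal of that summit was above the pooled median of 25.5. The remaining pooled summits were intronic, 4968381 (signal 31.4, rank 3903) and 4969902 (signal 22.7, rank 11053), and were overlapped in replicate 2 alone. Further replicate 1 summits were 4961670 (signal 11.2, rank 18500), 4963270 (signal 17.9, rank 4363), 4965105 (signal 15.3, rank 7579), 4971163 (signal 13.2, rank 12171), 4971370 (signal 12.4, rank 14480) and 4972449 (signal 16.6, rank 5674), besides 4963059 (signal 32.3, rank 658), and replicate 2 had 4963131 (signal 32.0, rank 873), 4963332 (signal 13.4, rank 11105), 4968383 (signal 18.9, rank 3699) and 4969782 (signal 15.7, rank 6824).

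**Figure D2:**
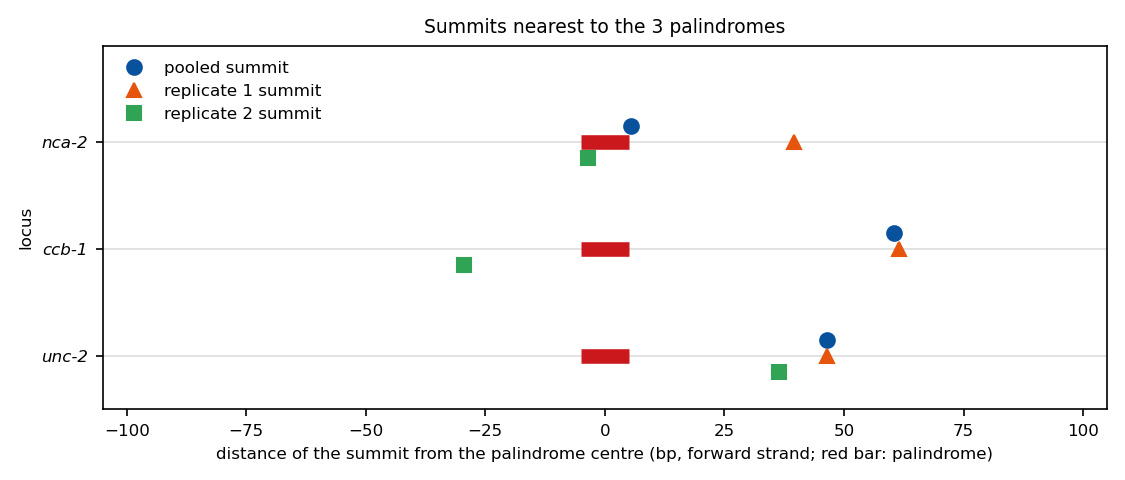
Distance in bp (horizontal axis, forward strand) from the centre of the palindrome to the nearest summit of the pooled list, replicate 1 and replicate 2, for the 3 loci with a palindrome (vertical axis); the red bar is the palindrome itself. All the summits lie within 61.5 bp of the palindrome centre, and at nca-2 the pooled summit is 5.5 bp from it.

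The 3 palindromes of unc-2, ccb-1 and nca-2 were all those present in the 8 loci, and each had a pooled summit within 100 bp. Of the 390 copies in the nuclear genome 353 lay in a protein-coding locus, and 34.6% of these had a pooled summit within 100 bp, 28.0% a replicate 1 summit, 36.5% a replicate 2 summit and 10.5% an IDR summit. The palindrome itself was present in 2.8% of protein-coding loci, and with a pooled summit beside it in 0.861%. All 8 loci exceeded the median locus length of 7027 bp and so had more room for both. Per length, the 8 loci held 15.7 palindromes per Mb and the nuclear genome 3.89. With 3 copies, and a set that was chosen with the unc-2 peak known, these shares are a description.

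The motif was also counted in windows of 201 bp centred on summits. Among the 38 pooled summits of the 8 loci 3 windows (7.89%) held the exact palindrome, against 0.826% of all nuclear pooled windows, 4.99% of nuclear IDR windows and 0.0778% of consecutive windows of the same length along the nuclear genome. With 1 mismatch allowed, 5 windows (13.2%) held it, against 4.76%, 11.7% and 2.34%. The search used the forward strand alone, since the palindrome reads the same on both. At egl-19, cca-1, unc-36 and nca-1 no window held it in either form. The 3 windows with the exact palindrome are those of the 3 copies counted above, in a set chosen with the unc-2 peak known. The window shares are therefore not separate evidence but a description of the same copies.

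Support from the libraries was uneven over the pooled summits. Of the 38 pooled summits 21 (55.3%) were overlapped by a peak in both replicate lists, against 50.7% of all pooled peaks. Neighbouring pooled summits could share a replicate peak, and the peaks of the replicates did not always overlap each other. Replicate 2 alone overlapped 14 (36.8%) and replicate 1 alone 2 (5.26%), whereas over all pooled peaks these shares were 24.1% and 22.1%. When the summits themselves had to be no more than 100 bp apart, both libraries matched 11 (28.9%), against 27.4% of all pooled peaks. The strongest summits of unc-2, nca-2 and ccb-1 had overlapping peaks that ranked 1021 or better in both libraries, and those of the other 5 genes did not. Of the replicate summits in the loci, 23 of 47 in replicate 1 (48.9%) belonged to peaks that overlapped no pooled peak, against 43.2% of all replicate 1 peaks. In replicate 2 they were 13 of 47 (27.7%), against 42.9%.

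**Figure D3:**
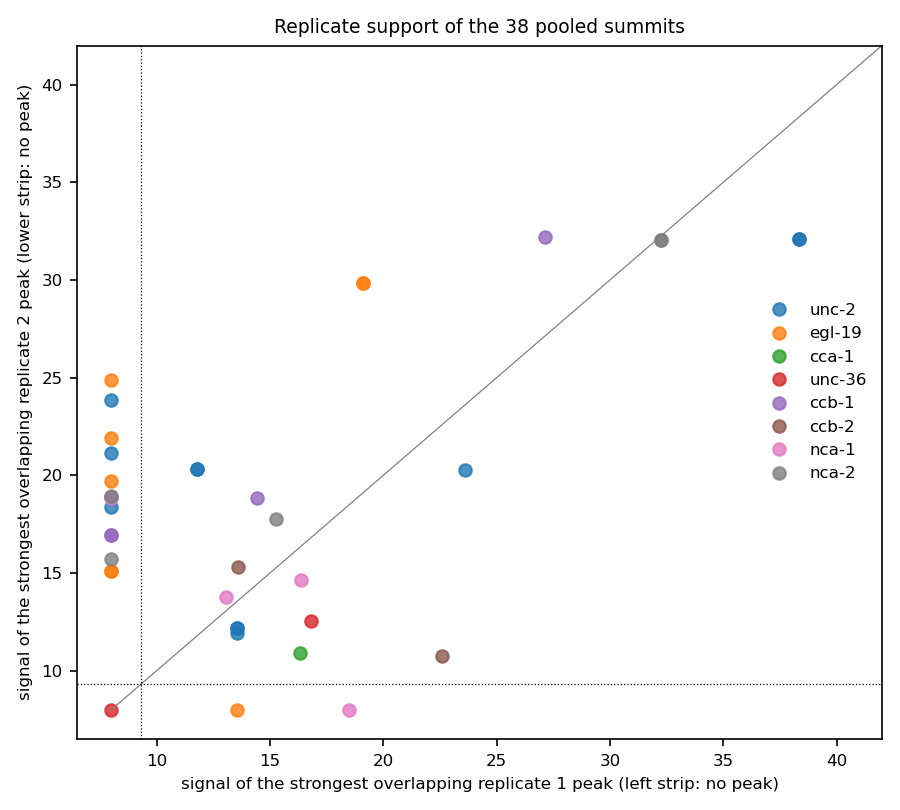
Signal of the strongest overlapping replicate 1 peak (horizontal axis) and replicate 2 peak (vertical axis) for each of the 38 pooled summits, coloured by gene, on the authors' scale of each list; pooled summits that share the same replicate peaks fall on 1 point. The strips at the left and lower edges hold summits without a peak in that replicate, 14 of them in the left strip with a replicate 2 peak.

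By position, the pooled summits of the 8 loci were mostly intronic. Introns held 24 (63.2%), against 38.4% of all nuclear pooled summits, intergenic sequence 12 (31.6%, against 44.3%), an untranslated region 1 and coding sequence 1. The loci were defined as gene bodies plus 5000 bp upstream, so their shares depend on that rule and on gene length. The shares over all nuclear pooled summits are therefore not a matched comparison. The 12 intergenic summits were the upstream ones of egl-19, unc-36, ccb-1 and nca-2, and unc-2 alone contributed 12 intronic ones. None of the 38 lay within 200 bp of a tRNA, snoRNA or snRNA gene.

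Summit density per kb set the genes in another order than the strongest signal did. It was highest at egl-19, with 0.441 pooled summits per kb, followed by ccb-1 with 0.383, nca-2 with 0.261, ccb-2 with 0.221, unc-2 with 0.208, unc-36 with 0.162, nca-1 with 0.127 and cca-1 with 0.0301. The median over all protein-coding loci was 0.130, so 6 of the 8 stood above it and nca-1 and cca-1 below. That median includes the loci without a pooled summit. Over total length, the 8 loci held 0.198 pooled summits per kb and the nuclear genome 0.155. By strongest pooled signal the order was unc-2 (78.5), nca-2 (59.5), ccb-1 (57.9), egl-19 (43.7), ccb-2 (32.3), nca-1 (29.3), unc-36 (28.2) and cca-1 (28.0). The median strongest signal over all loci with a pooled summit was 28.5, which the last 2 did not reach. The place of nca-2 rests on the summit 16 bp from the TSS of C27F2.9. Pooled summits of that locus whose nearest TSS was that of nca-2 reached 31.4 at most. No replicate spread exists for a pooled signal, and at their strongest summits nca-1, unc-36 and cca-1 had replicate 1 signals of 16.4, 16.8 and 16.3 and replicate 2 signals of 14.6, 12.6 and 10.9. The order of these 3 genes by pooled signal was thus that of replicate 2 and not that of replicate 1.

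**Figure D4:**
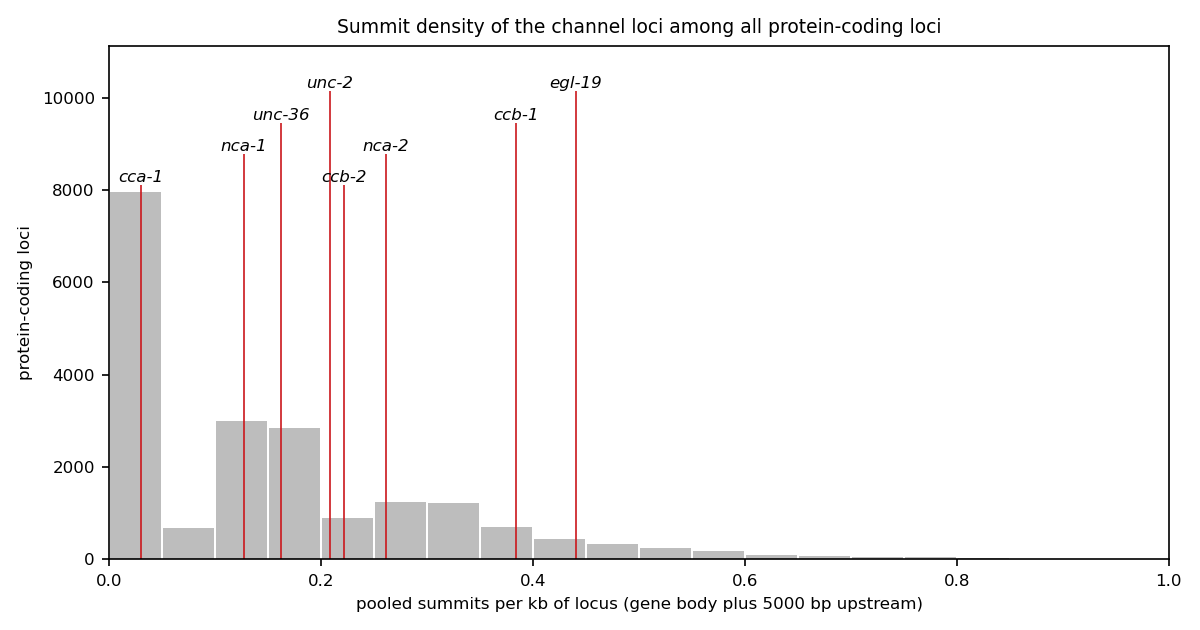
Number of protein-coding loci (vertical axis) by pooled summits per kb of locus (horizontal axis), with red lines for the 8 channel loci. The axis ends at 1 summit per kb, which 12 loci exceed, and the channel loci run from cca-1 at 0.0301 to egl-19 at 0.441.

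Partners of these channels and genes of calcium handling, a list of 18, were counted by the same locus rule. An IDR summit lay in the loci of 6 (33.3%), namely unc-79, unc-80, nlf-1, tag-180, jph-1 and cmd-1, against the 6.36% of all protein-coding loci given above and 12.5% of the channel genes, a difference that was not tested. The list was chosen with earlier results of these data known, so the choice itself can raise its share. The IDR summits of unc-79, jph-1 and cmd-1 lay more than 2000 bp upstream, so the count depends on the 5000 bp reach. The median locus of the list was 13369 bp long, with 4.0 pooled summits, compared with 1.0 over all loci and 4.0 over the 8 channel genes. Its median density was 0.292 pooled summits per kb. Of the 18 loci 17 had a pooled summit, and the exception, named after its value was seen, was itr-1, which encodes the inositol trisphosphate receptor.

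The 3 partners of the sodium leak channels on the list all had an IDR summit upstream of the gene, against 6.36% of all protein-coding loci with one. For each of the 3 summits the nearest TSS was that of the partner gene. The strongest was at unc-79 (III), which encodes a large auxiliary protein of the channel, with a signal of 120.4 (rank 160) at 4063834, 2799 bp upstream. Its replicate signals were 52.5 and 64.7. At unc-80 (V), which encodes the other auxiliary protein, the summit at 20879490 lay 111 bp upstream, with a signal of 87.4 (rank 348) and replicate signals of 32.9 and 51.0. At nlf-1 (X), which encodes an endoplasmic reticulum protein that helps to deliver the channel to the axon, the summit at 1018670 was 1103 bp upstream, with a signal of 67.4 (rank 594). Replicate signals at nlf-1 were 16.2 and 49.7, with the higher value in replicate 2. None of the 3 held the exact palindrome within 100 bp of its summit. The 3 genes are part of a list chosen with earlier results of these data known, so their count is a description.

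Among the remaining genes of the list, tag-180 (II) combined an IDR summit with the palindrome. Its summit at 11328562 lay in an intron 867 bp from the gene start, 18.5 bp from the palindrome centre, with a signal of 60.3 (rank 749) near the end of the IDR list. The strongest overlapping replicate peaks had signals of 44.0 and 40.2, above the 38.4 and 32.1 at the unc-2 peak. Where their summits lay is not given here. The pooled signals had the opposite order, with 78.5 at unc-2. The other alpha2delta gene, unc-36, had neither an IDR summit nor the palindrome. At cmd-1 (V), the calmodulin gene, 2 overlapping IDR peaks had summits at 1151510 (216.6, rank 33) and 1151717 (73.0, rank 505), 4761 and 4554 bp upstream, and shared replicate signals of 107.0 and 112.0. At jph-1, the junctophilin gene, a summit 3192 bp upstream had a signal of 60.8 (rank 736) and replicate signals of 32.3 and 29.5.

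**Figure D5:**
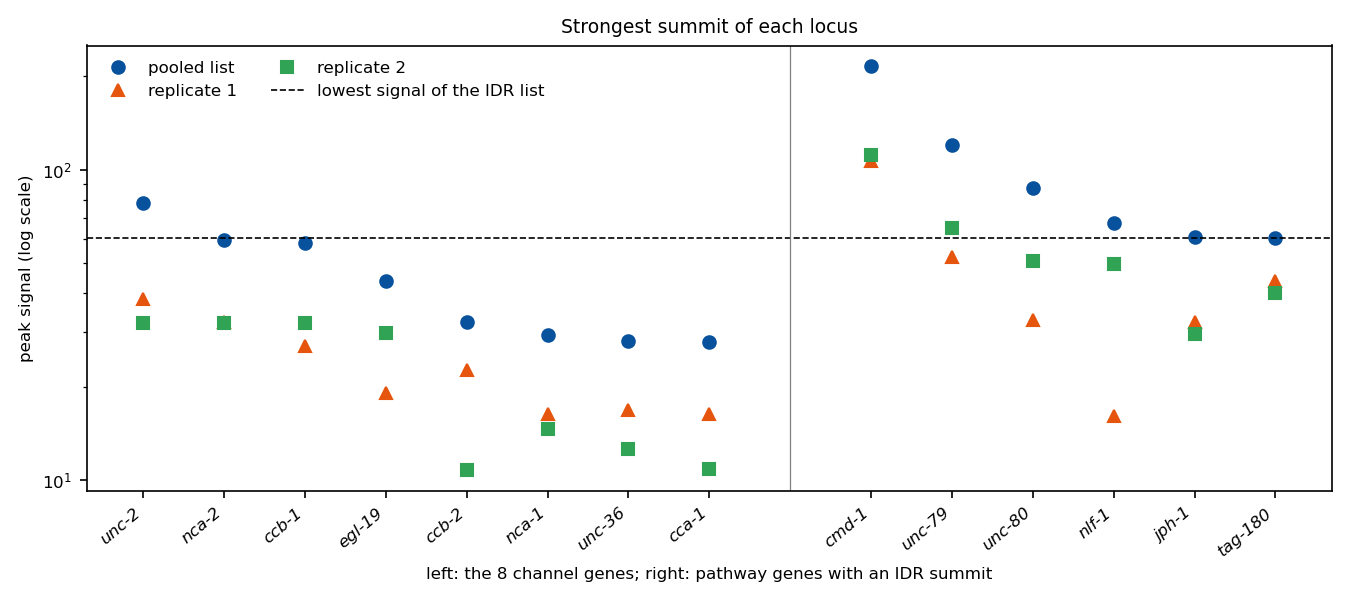
Signal of the strongest summit (vertical axis, log scale) in the pooled list and of the strongest overlapping peak in each replicate, for the 8 channel genes on the left and the 6 partner or calcium-handling genes with an IDR summit on the right. The dashed line is the lowest IDR signal, 60.2; on the left unc-2 alone lies above it, and on the right cmd-1 reaches 216.6.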

How the data were processed

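UNC-3 binding was measured in 2 libraries of 1 group. Per the labels' notes, the authors made a peak list from each library and its control, and a pooled list from both libraries, all with background, and derived the IDR list from these. The signal values (column 7) and the −log10 q-values (column 9) are as deposited, and the latter were not used. The aligner, peak caller and IDR threshold are not given in these sources, read depth is unknown, and no interval can be given. Positions are 1-based in ce11. No peak ran past a chromosome end of the RefSeq WBcel235 sequence, and Ensembl release 115 supplied the genes. The ce10 lists were not used. A locus had a summit when one lay in the gene body or 5000 bp upstream. A pooled peak was matched by replicate peaks overlapping it by at least 1 bp, and the strongest gave the replicate signal. The palindrome was searched within 100 bp of summits. Summit classes gave coding sequence precedence over untranslated region, intron and intergenic sequence. With 1 group, nothing was tested between conditions, and counts stand beside the share of all protein-coding loci. All 8 members are named, with nearest other genes and list genes that had an IDR summit. The members and lists were chosen with earlier results of these data known. Search and counts, run with Python 3.11.15, were checked on simulated data.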

Additional observations from a re-analysis of the deposited data

How the results depend on the processing

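Of 31 alternative values for 7 results, 19 stayed within 1.5 times of the count, or within the counting interval of the share, and 12 did not. The stronger part of the IDR list, from its median signal of 84.6, left 0 of the 8 genes and 0 summits, since the unc-2 peak had 78.5. With the 754 strongest peaks of 1 replicate in place of the IDR list, both the number of genes and the number of summits ranged from 0, without replicate 1, to 2, without replicate 2. The strongest 5000 pooled peaks left 14 summits of 38, fewer by construction. Summits within 100 bp of each other gave 11 pooled summits matched in both replicates in place of 21. The share of all protein-coding loci with an IDR summit was 4.29% with 2000 bp upstream, 9.50% with 10000 bp, 6.83% by peak overlap and 13.8% for loci of 30000 bp or more, a restriction chosen after seeing the data. The number of genes with the palindrome near a pooled summit was 2 within 50 bp, where ccb-1 dropped out, 3 within 200 bp and 4 with 1 mismatch, where ccb-2 was added. Read depth is unknown, so no limit on undetected sites can be given.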

Other observations

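Other channel families were counted by the same locus rule. The potassium channel gene slo-1 was on the list of partners and calcium handling, so the potassium channel counts leave it out. Its locus had 10 pooled summits, the strongest with a signal of 49.0, and no IDR summit. Of 19 potassium channel genes 1 had an IDR summit (5.26%) and 18 a pooled summit, and none had the palindrome beside a pooled summit. The gene was unc-58, which encodes a two-pore type channel, and its intronic summit at 10132748 on X (signal 66.8, rank 602), with replicate signals of 37.1 and 31.8, lay within 200 bp of the tRNA gene WBGene00014508. Of 14 genes of the DEG/ENaC family, which encode amiloride-sensitive sodium channel subunits, 1 had an IDR summit (7.14%), 9 a pooled summit and 1 the palindrome beside a pooled summit. The IDR summit, in the upstream stretch of asic-2 (signal 93.4, rank 299), had its nearest TSS at T28F4.1 and unequal replicate signals of 26.2 and 74.1. The median density was 0.133 pooled summits per kb for the potassium channel genes and 0.0973 for the DEG/ENaC genes, compared with 0.215 for the 8 calcium and sodium leak channel genes. Over all protein-coding loci it was 0.130, and 6.36% had an IDR summit, 60.4% a pooled summit and 0.861% the palindrome beside one. The lists were not matched for locus length. These differences between lists were not tested, and the lists were chosen with earlier results of these data known.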
